A study of Mus musculus with 25 samples.

Results

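The *Zscan4* genes are a family of near-identical copies that lie next to each other on mouse chromosome 7. Genes named *Zscan4a*, *Zscan4b*, *Zscan4c*, *Zscan4d*, *Zscan4e* and *Zscan4f* were taken by symbol from the gene annotation of the deposited count table. They are 6 of its 55375 genes, and all 6 passed the filter on low counts, which left 25794 genes off the sex chromosomes whose average count reached 1 for the tests. On mm10 the members are *Zscan4a* (ENSMUSG00000110097.1, chr7:10794242-10799057, minus strand, annotated as an unprocessed pseudogene), *Zscan4b* (ENSMUSG00000095339.2, chr7:10900740-10905050, minus strand), *Zscan4c* (ENSMUSG00000054272.6, chr7:11005745-11010547, plus strand), *Zscan4d* (ENSMUSG00000090714.10, chr7:11161374-11166159, minus strand), *Zscan4e* (ENSMUSG00000095936.3, chr7:11306378-11310682, minus strand) and *Zscan4f* (ENSMUSG00000070828.10, chr7:11397915-11402318, plus strand).

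RNA was sequenced from 25 pools of 5 to 10 two-cell embryos each, collected 28 to 29 h after insemination or activation, in 11 groups. IVF embryos (4 libraries) came from C57BL/6N oocytes of females aged 4 to 20 weeks and DBA2 sperm, while every SCNT embryo was made from an enucleated BDF1 oocyte and a BDF1 cumulus cell nucleus, so that oocyte strain and method of fertilization changed together between IVF and SCNT. SCNT embryos kept in cytochalasin B were left without mRNA (control SCNT, 2 libraries) or received 10 pL of *Kdm3a* or *Kdm4d* mRNA at 1500 ng/μL between 5 and 6 h post activation (SCNT-*Kdm3a* and SCNT-*Kdm4d*, 2 libraries each). SCNT embryos kept in latrunculin A were left without further treatment (CC_cont, 2 libraries), or were given trichostatin A, an inhibitor of histone deacetylases, at 25 nM for 8 h (CC_T, 2 libraries), an inhibitor of the histone methyltransferase G9a (G9ai) at 1 μM for 24 h (CC_G, with RK-701 in 3 libraries, labelled R701, and with A366 in 2), or both (CC_TG, with RK-701, A366 or UNC0638, 2 libraries each). UNC0638 was not given without TSA in these libraries. The labels give each library as a numbered replicate and say no more of its origin, so that the p-values measure the spread between these libraries.

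ZSCAN4 proteins carry a SCAN domain and zinc fingers, and in the mouse their genes are transcribed in a burst at the late two-cell stage, when the embryo starts to use its own genome. A small, changing fraction of embryonic stem cells also expresses them, and ZSCAN4 is best known there for its part in telomere maintenance and genome stability. In cumulus cells, the donors used here, the family is silent, and methylation of histone H3 on lysine 9 is among the marks carried into the reconstructed embryo. In the paper's account, G9a places its mono- and dimethyl forms, KDM3A removes these forms, and KDM4D removes the di- and trimethyl forms. The barrier that the paper describes in donor cells is the trimethyl form, which is placed mainly by other enzymes. Since each library is a pool of embryos, fewer expressing embryos or blastomeres and less RNA in each cannot be told apart.

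The members share their promoter as well as their coding part. RefSeq promoter sequences on GRCm38.p6 were at hand for *Zscan4b*, *Zscan4c*, *Zscan4d* and *Zscan4f*, and are shown because every level given in what follows comes from copies that are this alike, which limits how far reads can be given to one of them. The stretches shown are 124 bases long, from 100 bases before the TATAAAA motif to 17 bases after it. They are printed 5′ to 3′ on the strand of their gene, with the motif in capitals. They lie at chr7:10905058-10905181 (*Zscan4b*, minus strand), chr7:11005591-11005714 (*Zscan4c*, plus strand), chr7:11166190-11166313 (*Zscan4d*, minus strand) and chr7:11397784-11397907 (*Zscan4f*, plus strand).
Zscan4b: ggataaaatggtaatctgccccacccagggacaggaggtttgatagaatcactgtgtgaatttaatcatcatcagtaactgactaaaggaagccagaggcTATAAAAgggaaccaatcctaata
Zscan4c: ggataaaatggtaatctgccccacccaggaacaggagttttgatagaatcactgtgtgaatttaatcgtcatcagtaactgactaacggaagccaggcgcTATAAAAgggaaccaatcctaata
Zscan4d: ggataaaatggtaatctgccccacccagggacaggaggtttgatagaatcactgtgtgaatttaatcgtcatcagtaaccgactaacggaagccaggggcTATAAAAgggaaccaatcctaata
Zscan4f: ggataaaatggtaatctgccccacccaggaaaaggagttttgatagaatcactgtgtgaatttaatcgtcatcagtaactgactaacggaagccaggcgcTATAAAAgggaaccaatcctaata

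The printed stretches of *Zscan4c* and *Zscan4f* differed at 1 of the 124 bases (99.2% identity), and those of *Zscan4b* and *Zscan4f*, the least alike, at 7 (94.4%). The first base of the TATAAAA motif lay 31 bases before the RefSeq start of *Zscan4b* and *Zscan4f*, 54 before that of *Zscan4c* and 65 before that of *Zscan4d*. Within the 250 bases before the start, the letters TATAAAA stood on the gene's strand in 991 of 32851 mouse promoters (3.02%), in 1636 (4.98%) on either strand, and in all 4 *Zscan4* promoters of the table. The longest transcripts of the members were 96.6% (*Zscan4b* with *Zscan4d*) to 99.7% (*Zscan4b* with *Zscan4e*) identical. Of all 150-base windows of a member's transcripts, 77.4% recurred in another copy for *Zscan4f*, 75.0% for *Zscan4e*, 66.4% for *Zscan4b*, 61.0% for *Zscan4c*, 25.1% for *Zscan4a* and 13.0% for *Zscan4d*. The authors counted uniquely aligned reads, so the division of reads among members was least certain for *Zscan4f*, *Zscan4e*, *Zscan4b* and *Zscan4c*, and surest for *Zscan4d*.

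Total gene counts ran from 6662727 to 21188688 per library (median 13994840). The injected mRNAs were seen where the labels place them: *Kdm3a* stood at 3465 and 3116 CPM in the SCNT-*Kdm3a* libraries against 108.5 to 266.5 CPM elsewhere, and *Kdm4d* at 18540 and 12540 CPM in the SCNT-*Kdm4d* libraries against at most 5.081 CPM elsewhere. Summed over 12 cumulus cell markers, levels were 43.54 to 66.06 TPM in IVF and 41.06 to 118.7 TPM in SCNT libraries, with 9 or 10 of the 12 under 1 TPM in the groups. Markers of the oocyte and early embryo summed to 2666 to 3223 TPM in IVF libraries and to 985.2 to 3254 TPM in SCNT libraries.

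Together the 6 members reached 510.7 ± 83.57 TPM in IVF embryos (mean ± SD, n = 4), and the TPM values used throughout were computed from the counts and the exon lengths of the count table. Untreated SCNT embryos had 5.49% of that level (control SCNT, 28.96 and 27.13 TPM) and 5.47% (CC_cont, 37.46 and 18.41 TPM). TSA alone left the sum at 5.59% (16.71 and 40.39 TPM) and A366 alone at 6.11% (23.26 and 39.11 TPM), and the libraries of these 4 groups overlapped. Without CC_cont replicate 1 the level of CC_cont was 3.605% of IVF, and without CC_T replicate 2 that of CC_T was 3.271%.

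A366 with TSA stood at 14.4% of IVF (70.51 and 76.3 TPM), above every library of the 4 lowest groups. RK-701 with TSA followed at 16.7% (63.69 and 106.5 TPM) and RK-701 alone at 24.0% (80.53, 141.7 and 145.5 TPM), and each of these overlapped its neighbour. The distance between these RK-701 groups depended on the scale. *Zscan4a* averaged 28.1 TPM with TSA and 35.23 without it, but 25.58 and 24.87 CPM. *Zscan4d* averaged 38.74 and 55.93 TPM, but 35.33 and 39.39 CPM. SCNT-*Kdm4d* stood at 35.2% (177.9 and 181.6 TPM), above all RK-701 and A366 libraries. UNC0638 with TSA had 47.4% (302.1 and 181.7 TPM) and SCNT-*Kdm3a* 49.2% (273.3 and 229.0 TPM), and these overlapped each other. Every SCNT library lay below the lowest IVF library, which had 419.4 TPM. The lower UNC0638 library was level with SCNT-*Kdm4d*, so that the order of these groups rests on the other UNC0638 library.

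**Figure D1:**
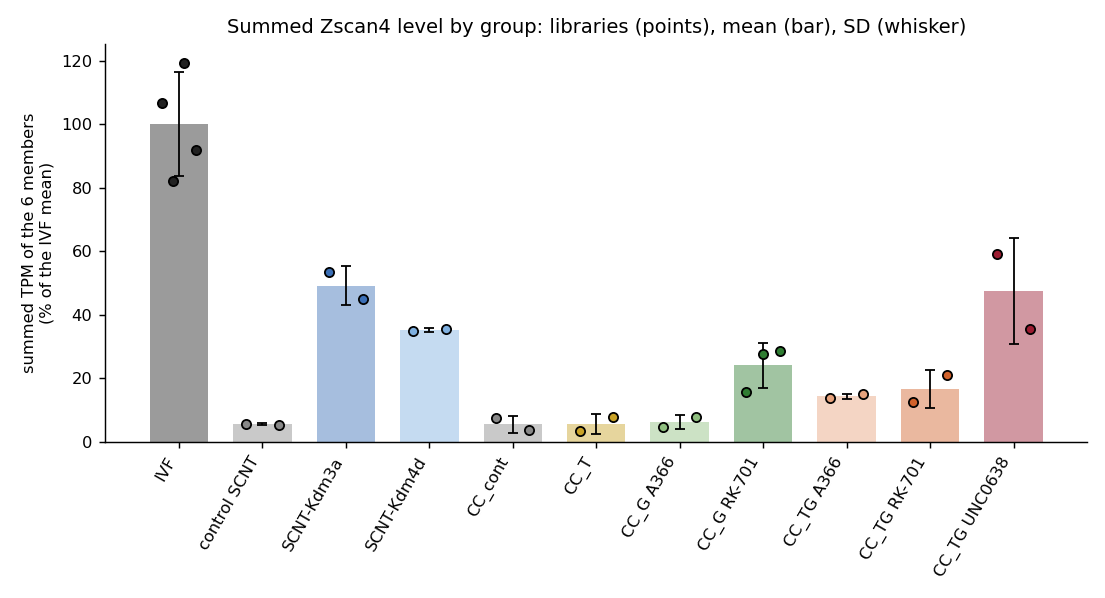
Summed level of the 6 *Zscan4* members in each group, as a percentage of the IVF mean of 510.7 TPM (points, libraries; bars, group means; whiskers, SD). Untreated SCNT, TSA alone and A366 alone sit between 5.47% and 6.11%, RK-701 and the co-treatments with A366 or RK-701 between 14.4% and 24.0%, and SCNT-*Kdm4d*, UNC0638 with TSA and SCNT-*Kdm3a* between 35.2% and 49.2%.

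*Zscan4d*, the member with most reads and the one with the most sequence of its own, had 219.3, 193.3, 236.7 and 202.7 TPM in the IVF libraries. It had 10.98 and 12.08 TPM in control SCNT, 15.21 and 8.114 in CC_cont, 7.043 and 21.24 in CC_T and 7.889 and 9.405 in CC_G A366. None of these 8 libraries exceeded 21.24 TPM, and the groups overlapped one another except that both A366 libraries lay below both control SCNT libraries. It had 26.49, 59.47 and 81.82 TPM in CC_G RK-701, 31.73 and 31.95 in CC_TG A366 and 25.53 and 51.96 in CC_TG RK-701. It had 147.2 and 96.43 TPM in CC_TG UNC0638, 151.6 and 127.7 in SCNT-*Kdm3a* and 73.02 and 67.89 in SCNT-*Kdm4d*. No library of the low groups reached any library of the treated groups, and none of the treated libraries reached IVF.

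*Zscan4a* had 182.0, 127.0, 200.5 and 164.0 TPM in IVF, 9.613 and 7.019 in control SCNT, 4.903 and 6.913 in CC_cont and 4.927 and 8.557 in CC_T. It had 7.287 and 14.6 TPM in CC_G A366, just above CC_cont, and 29.98, 37.05 and 38.66 in CC_G RK-701. The co-treatments were close to RK-701 alone, at 29.13 and 32.88 TPM with A366 and 27.44 and 28.77 with RK-701. UNC0638 with TSA (59.61 and 43.8 TPM), SCNT-*Kdm3a* (78.04 and 41.5) and SCNT-*Kdm4d* (46.4 and 59.47) overlapped one another and lay above the other inhibitor groups.

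*Zscan4f* stood furthest below its IVF level of *Zscan4a*, *Zscan4c*, *Zscan4d* and *Zscan4f* in each treated group but CC_T. It had 81.69, 48.51, 88.93 and 52.14 TPM in IVF, 0.1721 and 2.072 in control SCNT, 4.124 and 1.027 in CC_cont, 3.009 and 3.181 in CC_T and 1.615 and 1.012 in CC_G A366. The RK-701 libraries had 7.059, 9.168 and 5.94 TPM without TSA but only 2.71 and 3.426 with it, within the range of CC_cont. A366 with TSA had 3.389 and 4.667 TPM, SCNT-*Kdm3a* 17.26 and 17.44, SCNT-*Kdm4d* 17.69 and 14.08, and UNC0638 with TSA 27.45 and 10.23, so that the mRNA injected groups and UNC0638 overlapped.

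*Zscan4c* varied widely between libraries of a group. It had 56.33, 41.22, 73.23 and 41.83 TPM in IVF, 7.256 and 4.091 in control SCNT, 12.84 and 2.356 in CC_cont (170 and 16 reads), 1.727 and 7.42 in CC_T and 5.443 and 13.36 in CC_G A366. CC_G RK-701 had 15.64, 32.27 and 16.19 TPM, CC_TG RK-701 7.688 and 21.32, and CC_TG A366 6.157 and 5.907. SCNT-*Kdm3a* had 20.94 and 39.23 TPM, SCNT-*Kdm4d* 33.69 and 34.71, and CC_TG UNC0638 63.58 and 27.41. UNC0638 with TSA was the only treatment with a library inside the IVF range for this gene.

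*Zscan4b* and *Zscan4e* had few uniquely aligned reads everywhere, at 2.827 to 5.9 TPM and 2.368 to 5.513 TPM in IVF, and had 0 reads in 7 and 4 of the 25 libraries. Of their 150-base windows, 66.4% and 75.0% recurred in another copy, and the part of discarded reads in these low values was not tested. *Zscan4b* had no read in either CC_cont, CC_T or CC_TG A366 library, 6, 11 and 9 reads in CC_G RK-701 and 18 and 6 in CC_TG UNC0638. *Zscan4e* had 4 and 0 reads in CC_cont, 0 in both CC_T libraries, and 4.776 and 3.134 TPM in SCNT-*Kdm4d*, where it overlapped IVF. A fold against a group with at most 3 reads per library is given as a lower bound, set at 3 reads per library.

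**Figure D2:**
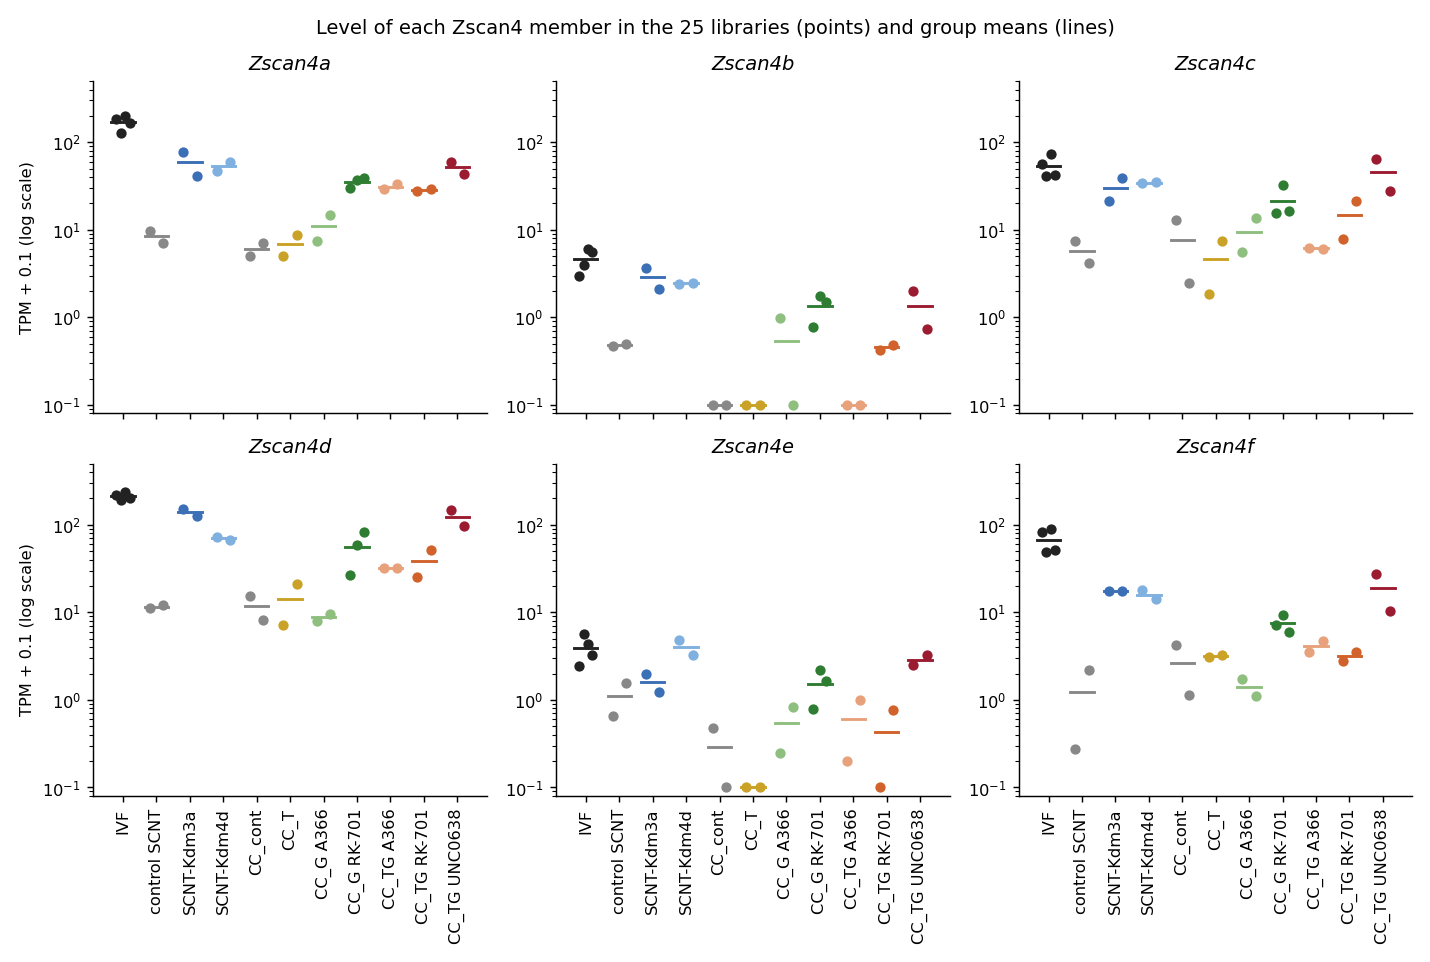
Level of each member in every library, 1 panel per gene, in TPM plus 0.1 on a log axis (points, libraries by group). *Zscan4a* and *Zscan4d* separate the low groups from RK-701 and the co-treatments, whereas *Zscan4f* with RK-701 and TSA stays at 2.71 and 3.426 TPM beside 1.027 and 4.124 in CC_cont. Lines mark group means.

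Untreated SCNT embryos against IVF give the size of the gap that the treatments act on. In control SCNT, 5 members were lower at an adjusted p below 0.05 and a fold above 2 (6.82% of all genes were lower by that rule), and in CC_cont all 6 (6.48%). All 6 members are on the study's list of reprogramming-resistant genes, which was chosen on IVF and control libraries of this series, so that these counts are no independent evidence of the direction. Between the untreated controls, CC_cont against control SCNT, no member passed edgeR's quasi-likelihood test (1 had an unadjusted p below 0.05, none passed with DESeq2, and 0.0116% of all genes were called in either direction). The difference was -0.00 ± 0.46 on the log2 scale for *Zscan4d* (95% interval -0.95 to 0.94) and -0.57 ± 0.36 for *Zscan4a* (-1.31 to 0.17).

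RK-701 alone raised *Zscan4a*, *Zscan4d* and *Zscan4b* over CC_cont, which was 3 of 6 members beside 1.73% of all genes higher. *Zscan4a* rose by 2.66 ± 0.33 on the log2 scale, or 6.33-fold (adjusted p = 6.82e-05, edgeR's quasi-likelihood test as in all comparisons that follow), and *Zscan4d* by 2.26 ± 0.43, or 4.8-fold (adjusted p = 0.00221). *Zscan4b*, with no read in CC_cont, was at least 3.12-fold higher (adjusted p = 0.0227). All 3 RK-701 libraries lay above both CC_cont libraries for each of the 6 members. The share of all genes without such overlap was not computed, here or in later comparisons. The members also moved together across libraries, so separation for all 6 is not 6 separate observations. The values for *Zscan4c* (log2 fold change 1.44 ± 0.59, adjusted p = 0.166), *Zscan4f* (1.43 ± 0.54, adjusted p = 0.122) and *Zscan4e* (2.58 ± 1.14, adjusted p = 0.205) did not pass. Without CC_cont replicate 2 the count was 1, *Zscan4d* then being 1.85 higher on the log2 scale with an adjusted p of 0.0823. The remaining CC_cont library was then assumed to vary like the other groups, as in each case where 1 library of a pair was left out.

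With A366 alone or TSA alone, no member passed. A366 gave *Zscan4a* a log2 fold change of 1.01 ± 0.35 (adjusted p = 0.24), with both libraries above CC_cont, while *Zscan4d* (-0.40 ± 0.46) and *Zscan4f* (-1.04 ± 0.66) had values below 0. Of the 6 members, 2 had an unadjusted p below 0.05 with A366, 0 passed with DESeq2, and 0.12% of all genes were called in either direction. TSA gave 0.34 ± 0.36 for *Zscan4a* and 0.36 ± 0.45 for *Zscan4d*, and both groups overlapped for every member. No member had an unadjusted p below 0.05 with TSA, 0 passed with DESeq2, and 0.318% of all genes were called.

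RK-701 with TSA raised *Zscan4a* by 2.705 ± 0.35 on the log2 scale (6.52-fold, adjusted p = 5.1e-05) and *Zscan4d* by 2.11 ± 0.45 (4.32-fold, adjusted p = 0.00277) over CC_cont, 2 of 6 members beside 3.68% of all genes higher. A366 with TSA raised the same members, *Zscan4a* by 2.78 ± 0.35 (6.88-fold, adjusted p = 3.78e-05) and *Zscan4d* by 1.76 ± 0.44 (3.38-fold, adjusted p = 0.0115), beside 3.06% of all genes higher. Both libraries of each co-treatment lay above both CC_cont libraries for these genes. *Zscan4f* had log2 values of 0.54 ± 0.59 and 0.86 ± 0.58, and *Zscan4c* of 1.26 ± 0.63 and -0.08 ± 0.64, and neither passed. The count for RK-701 with TSA was 1 without CC_cont replicate 2 or CC_TG RK-701 replicate 2, and that for A366 with TSA was 1 without CC_cont replicate 2 or either CC_TG A366 replicate. In each case the call on *Zscan4d* was the one lost. With these co-treatments the median log2 fold change of all genes was -0.11 and -0.12.

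UNC0638 with TSA raised all 6 members over CC_cont (3.68% of all genes were higher). The libraries of the groups did not overlap for any of them, a separation not counted over all genes. *Zscan4d* rose by 3.78 ± 0.47 on the log2 scale (13.7-fold, adjusted p = 1.25e-05), *Zscan4a* by 3.60 ± 0.36 (12.1-fold, adjusted p = 8.47e-07), *Zscan4f* by 3.18 ± 0.57 (9.05-fold, adjusted p = 0.000706) and *Zscan4c* by 2.92 ± 0.65 (7.59-fold, adjusted p = 0.00456). *Zscan4e* rose by 3.90 ± 1.20 (adjusted p = 0.0397), from 4 and 0 reads, and *Zscan4b* was at least 4.19-fold higher (adjusted p = 0.0108). The count was 3 without CC_cont replicate 2 or CC_TG UNC0638 replicate 1.

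The mRNA injected groups were compared with control SCNT. *Kdm3a* and *Kdm4d* mRNA each raised *Zscan4a*, *Zscan4c*, *Zscan4d* and *Zscan4f*, 4 of 6 members beside 2.38% and 2.11% of all genes higher, with median log2 fold changes over the 6 members of 3.23 and 3.01. *Zscan4b*, at 2 and 3 reads in control SCNT, was at least 7.75-fold and at least 6.51-fold higher (adjusted p = 0.0816 and 0.122), and *Zscan4e* had log2 values of 0.91 ± 1.05 and 2.27 ± 1.06 (adjusted p = 0.68 and 0.244). Directly compared, no member passed between SCNT-*Kdm4d* and SCNT-*Kdm3a* (1 had an unadjusted p below 0.05, none passed with DESeq2, and 0.326% of all genes were called). *Zscan4d*, which had libraries of 73.02 and 67.89 TPM with *Kdm4d* and of 151.6 and 127.7 TPM with *Kdm3a*, had a log2 difference of -0.99 ± 0.41 (95% interval -1.84 to -0.15, adjusted p = 0.417).

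The G9a inhibitors were given at the same dose for the same time, which allows 4 direct comparisons between them, 1 without and 3 with TSA. Without TSA, RK-701 was higher than A366 for *Zscan4d* by 2.66 ± 0.44 on the log2 scale (95% interval 1.76 to 3.57, adjusted p = 0.000165), *Zscan4f* by 2.47 ± 0.60 (1.24 to 3.71, adjusted p = 0.00602) and *Zscan4a* by 1.66 ± 0.31 (1.02 to 2.29, adjusted p = 0.000615). These are 3 of 6 members, beside 4.1% of all genes higher, and all 3 RK-701 libraries lay above both A366 libraries for each. *Zscan4c* had a difference of 1.16 (-0.05 to 2.37), also without overlap, but did not pass, and *Zscan4b* (1.47) and *Zscan4e* (1.61) did not either. Without CC_G A366 replicate 2, *Zscan4f* had an adjusted p of 0.113.

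With TSA the difference between RK-701 and A366 was not detectable for any member. It was -0.08 on the log2 scale for *Zscan4a* (95% interval -0.72 to 0.56), 0.35 for *Zscan4d* (-0.50 to 1.21), -0.32 for *Zscan4f* (-1.49 to 0.84) and 1.34 for *Zscan4c* (0.03 to 2.65). No member and no other gene passed (0% of 25794), 2 members had an unadjusted p below 0.05, and 0 passed with DESeq2. The intervals hold differences of over 2-fold for *Zscan4c*, *Zscan4d* and *Zscan4f*.

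With TSA, UNC0638 was higher than RK-701 for *Zscan4f* by 2.64 ± 0.56 (95% interval 1.50 to 3.78, adjusted p = 0.0147) and *Zscan4d* by 1.66 ± 0.42 (0.80 to 2.53, adjusted p = 0.0461), 2 of 6 members beside 0.671% of all genes. It was higher than A366 for *Zscan4c* by 3.00 (adjusted p = 0.0179), *Zscan4f* by 2.32 (adjusted p = 0.03) and *Zscan4d* by 2.02 (adjusted p = 0.015), and *Zscan4b* was at least 4.44-fold higher (adjusted p = 0.0452), 4 of 6 beside 0.733%. Both UNC0638 libraries lay above the RK-701 and A366 co-treated libraries for all 6 members. This separation was not counted over all genes, and the members moved together, so it shows nothing particular to them. *Zscan4a* had a difference of 0.90 to RK-701 (adjusted p = 0.213) and of 0.82 to A366 (adjusted p = 0.313). Adjustment over all genes of the 4 pairs together left the same 9 calls. Most of these calls were lost when 1 library was left out: the count against RK-701 was 0 without CC_TG RK-701 replicate 1 or 2 or CC_TG UNC0638 replicate 1 and 1 without UNC0638 replicate 2, and the count against A366 was 0 without CC_TG A366 replicate 1 or 2 or CC_TG UNC0638 replicate 1, but 3 without UNC0638 replicate 2. *Zscan4d* kept its direction when any 1 library was left out, with log2 differences of 1.23 to 2.30 to RK-701 and of 1.62 to 2.33 to A366.

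**Figure D3:**
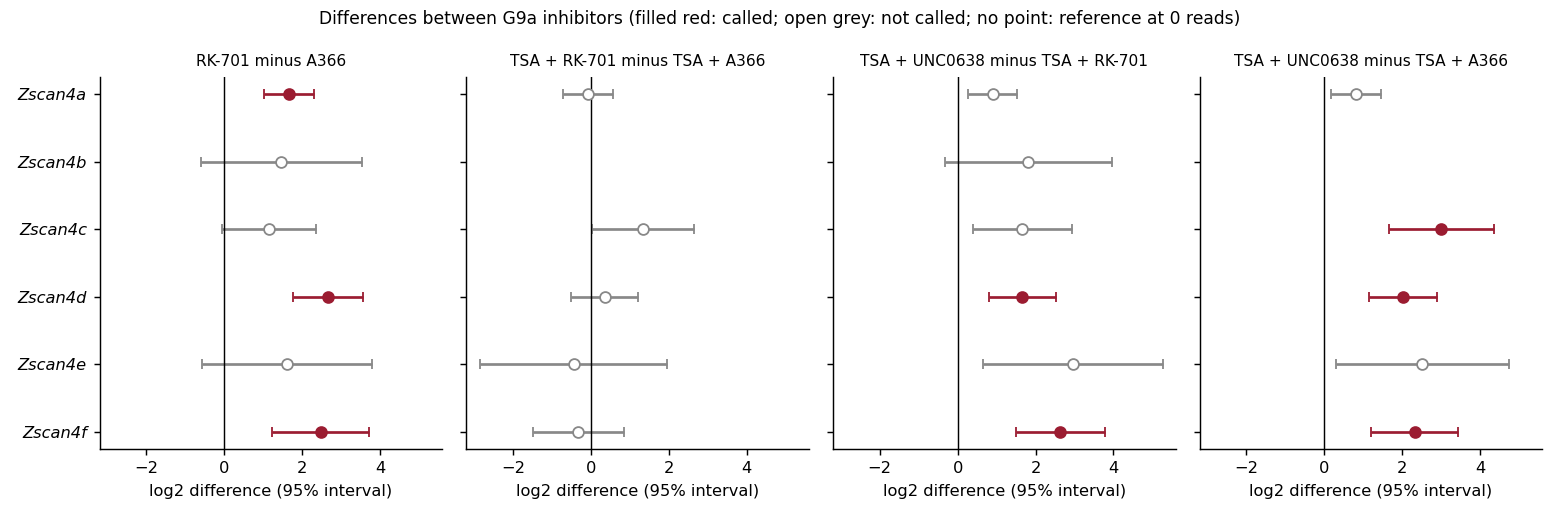
Difference of each member between G9a inhibitors at matched dose and time, as log2 fold change with its 95% interval (filled points passed the test, open points did not, and no point is drawn where a group had no read). RK-701 exceeded A366 for *Zscan4a*, *Zscan4d* and *Zscan4f* without TSA, the intervals of RK-701 against A366 with TSA lie around 0 for *Zscan4a*, *Zscan4d* and *Zscan4f*, and UNC0638 exceeded both for *Zscan4d* and *Zscan4f* with TSA.

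TSA was also compared with its absence in the presence of either inhibitor. TSA added to RK-701 moved no member past the test: the difference was 0.04 on the log2 scale for *Zscan4a* (95% interval -0.54 to 0.63), -0.15 for *Zscan4d* (-0.93 to 0.63) and -0.89 for *Zscan4f* (-1.96 to 0.17), none had an unadjusted p below 0.05, 0 passed with DESeq2, and 10.3% of all genes were called. In TPM, the libraries with TSA lay below those with RK-701 alone for *Zscan4a*, *Zscan4b*, *Zscan4e* and *Zscan4f*, and overlapped them for *Zscan4c* and *Zscan4d*. In CPM, *Zscan4a* overlapped, at 24.58 and 26.58 with TSA beside 20.87, 26.67 and 27.07 without it. The share of all genes separated in this way was not computed. TSA added to A366 raised *Zscan4d* by 2.16 ± 0.46 (adjusted p = 0.0039) and *Zscan4a* by 1.78 ± 0.33 (adjusted p = 0.00154), 2 of 6 members beside 3.1% of all genes, and *Zscan4f* had a value of 1.90 ± 0.64 (adjusted p = 0.0705). The count was 1 without either CC_G A366 replicate. The summed markers of the oocyte and early embryo, 9 genes of which none was at 0 reads, were 2523 to 3254 TPM with RK-701, 985.2 to 1125 with RK-701 and TSA, 1331 to 1782 with A366, 1362 to 1634 with A366 and TSA and 1204 to 1540 with UNC0638 and TSA, beside 1417 to 1435 in CC_cont, and the part of this in the inhibitor comparisons was not tested.

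Seen from TSA, RK-701 raised *Zscan4a* by 2.37 ± 0.34 (adjusted p = 0.00076) and *Zscan4d* by 1.75 ± 0.44 (adjusted p = 0.0175), beside 2.28% of all genes higher. A366 raised *Zscan4a* by 2.44 ± 0.34 (adjusted p = 0.000756), 1 of 6 beside 1.43%, and UNC0638 raised all 6, *Zscan4d* by 3.42 ± 0.46 (adjusted p = 4.52e-05), beside 3.38%. Without CC_T replicate 1 the counts for RK-701 and UNC0638 were 0 and 2, without CC_TG RK-701 replicate 2 the count for RK-701 was 1, and without CC_T replicate 2 that for A366 was 2.

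A test of the interaction, whether TSA and the inhibitor together differed from the sum of each alone on the log2 scale, called no member for either inhibitor (2.3% and 1.88% of all genes were called). For RK-701 the interaction was -0.30 ± 0.46 for *Zscan4a* and -0.51 ± 0.59 for *Zscan4d*, and no member had an unadjusted p below 0.05. For A366 it was 1.44 ± 0.48 for *Zscan4a* (adjusted p = 0.121) and 1.80 ± 0.63 for *Zscan4d* (adjusted p = 0.137), and 2 members had an unadjusted p below 0.05. For A366 the count was 1 with DESeq2, 1 without CC_cont replicate 2 and 2 without CC_T replicate 2. For *Zscan4b*, with no read in CC_cont or CC_T, no interaction could be estimated.

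Against IVF, *Zscan4f* had the lowest log2 value of *Zscan4a*, *Zscan4c*, *Zscan4d* and *Zscan4f* in the comparisons with RK-701, the co-treatments and the mRNAs. Against IVF, RK-701 alone was lower for 4 members (5.15% of all genes were lower), namely *Zscan4f* at -3.45 ± 0.44 on the log2 scale (adjusted p = 1.9e-06), *Zscan4a* at -2.51 ± 0.26 (adjusted p = 6.21e-08), *Zscan4d* at -2.18 ± 0.34 (adjusted p = 2.64e-05) and *Zscan4c* at -1.57 ± 0.48 (adjusted p = 0.0204). RK-701 with TSA was lower for all 6 (5.95%), with *Zscan4f* at -4.34 ± 0.56, *Zscan4a* at -2.47 ± 0.30 and *Zscan4d* at -2.33 ± 0.40, and A366 with TSA for 5 (5.37%), with *Zscan4f* at -4.02. TSA alone and A366 alone were lower for all 6 (7.12% and 7.14%). The count for RK-701 with TSA was 3 without CC_TG RK-701 replicate 1.

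UNC0638 with TSA was lower than IVF for 2 members (4.3% of all genes were lower), *Zscan4f* at -1.70 ± 0.47 (adjusted p = 0.0122) and *Zscan4a* at -1.57 ± 0.28 (adjusted p = 0.000281). The other differences did not pass: *Zscan4d* had -0.67 (95% interval -1.42 to 0.08), *Zscan4c* -0.08 (-1.14 to 0.98) and *Zscan4e* -0.33 (-2.10 to 1.43), intervals that hold changes of over 2-fold for each. SCNT-*Kdm3a* was lower for 2 members (6.21%), *Zscan4f* at -1.81 and *Zscan4a* at -1.35, and SCNT-*Kdm4d* for 3 (4.46%), *Zscan4f* at -1.95, *Zscan4a* at -1.52 and *Zscan4d* at -1.45. Without UNC0638 replicate 2 the first count was 1, without SCNT-*Kdm3a* replicate 1 or 2 the second was 1 or 0, and without SCNT-*Kdm4d* replicate 2 the third was 1.

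The share of the log2 gap between untreated SCNT and IVF that each treatment closed was computed on log2(TPM + 1), which understates the change of low genes. For the summed members it was -0.314% with TSA, 4.54% with A366, 34.3% with A366 and TSA, 38.2% with RK-701 and TSA, 50.5% with RK-701, 64.0% with *Kdm4d*, 73.7% with UNC0638 and TSA and 75.5% with *Kdm3a*. The share was not computed on CPM, a scale on which RK-701 with and without TSA lay closer together. Among the members, UNC0638 with TSA closed 89.9% for *Zscan4c* and 80.0% for *Zscan4d* but 56.6% for *Zscan4f*. RK-701 with TSA closed 45.3% for *Zscan4a* and 7.57% for *Zscan4f*, and *Kdm3a* 85.2% for *Zscan4d* and 63.8% for *Zscan4f*.

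Set against the mRNA injected groups, RK-701 with TSA was lower than SCNT-*Kdm3a* for *Zscan4f* at -2.53, *Zscan4d* at -1.88 and *Zscan4a* at -1.12 on the log2 scale, 3 of 6 members beside 1.23% of all genes lower. The count was 0 without SCNT-*Kdm3a* replicate 1 or CC_TG RK-701 replicate 1, and 1 without CC_TG RK-701 replicate 2. Against SCNT-*Kdm4d* no member passed (0.322% of all genes were called), although all 6 had an unadjusted p below 0.05 and 2 passed with DESeq2. Both RK-701 libraries lay below both *Kdm4d* libraries for each member, a separation not counted over all genes. These groups also differ in the cytoskeletal inhibitor, and between the untreated controls of both arms the log2 difference, CC_cont against control SCNT, was -0.00 for *Zscan4d* (95% interval -0.95 to 0.94), -0.57 for *Zscan4a* (-1.31 to 0.17) and 1.11 for *Zscan4f* (-0.29 to 2.50).

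The mix of members was described by the share of each in the summed TPM. In IVF, *Zscan4d* made up 42.1 ± 3.22% of the summed TPM (SD, n = 4), *Zscan4a* 32.9 ± 1.95%, *Zscan4f* 13.1 ± 2.01%, *Zscan4c* 10.3 ± 1.3%, *Zscan4b* 0.89% and *Zscan4e* 0.777%. The share of *Zscan4f* was below the lowest IVF share (11.1%) in 20 of 21 SCNT libraries and above the highest in the other one, a CC_T library (median 6.47%, range 0.594% to 18%). The share of *Zscan4c* was above the highest IVF share (12%) in 16 of 21 and below the lowest in 3 (median 18.4%). *Zscan4d* took its highest group share in SCNT-*Kdm3a* (55.6%), and *Zscan4a* took 42.2% with A366 and TSA but 21.9% with UNC0638 and TSA. The oocytes differ in strain between IVF and SCNT, while the embryo genome is C57BL/6N by DBA2 in both, and the copies are told apart by few bases. The part of the oocyte and of read assignment in these shares was not tested. The low untreated groups rest on 124 to 487 reads over the 6 members per library.

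**Figure D4:**
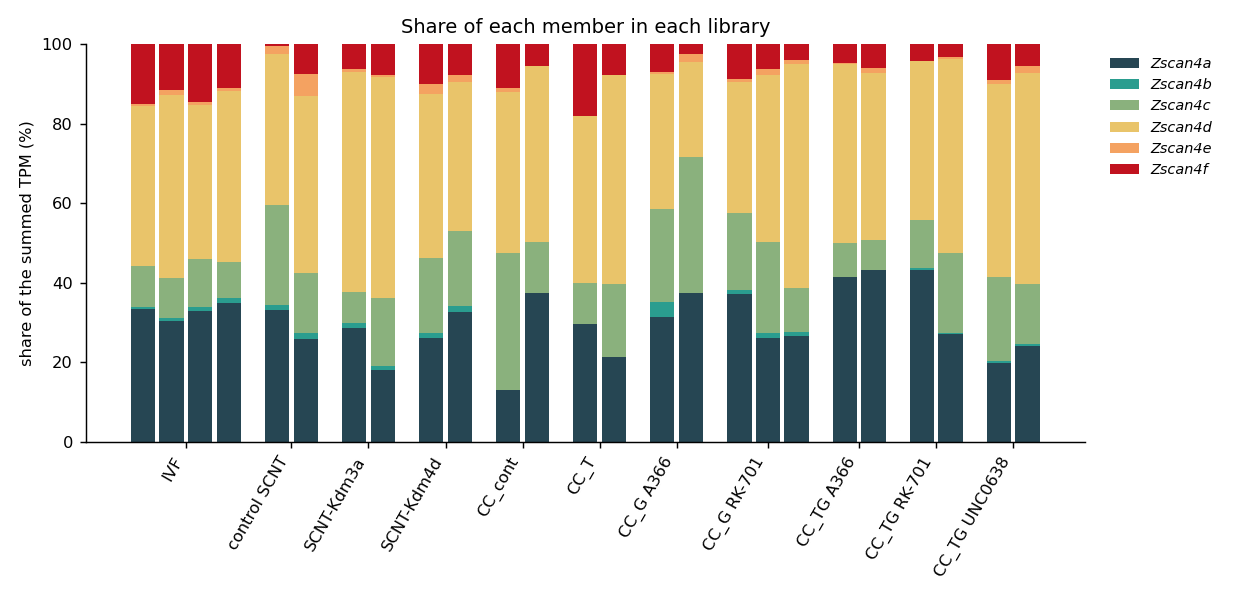
Share of each member in the summed *Zscan4* TPM of each library, in percent (stacked bars, 1 per library, grouped). *Zscan4f*, at 11.1% to 15.0% in IVF, has a median of 6.47% over the 21 SCNT libraries, and *Zscan4c* a median of 18.4% beside 8.91% to 12% in IVF.

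The members moved together across the libraries, with pairwise Pearson correlations of log2(TPM + 1) from 0.782 (*Zscan4a* with *Zscan4e*) to 0.941 (*Zscan4a* with *Zscan4d*) over 25 libraries that fall into the 11 groups. Ranked by the correlation with the summed level among 17756 genes, those most like it were *Obox3* (r = 0.958), a homeobox gene on the same chromosome, the genes with its pseudogene symbols *Obox3-ps5* (0.952), *Obox3-ps2* (0.950) and *Obox3-ps6* (0.946), and *Gm11756* on chromosome 4 (0.947). The next were *Zscan4-ps2* (0.924), *Ubtfl1* (0.923), *Usp17le* (0.920), *Zscan4-ps1* (0.919) and *Zscan4-ps3* (0.919). Depth, strain and treatment are shared by these points, so no p is given. *Obox3* had group means of 345.6 TPM in IVF, 50.2 in CC_cont, 156.7 with RK-701, 152.5 with A366 and TSA, 142.4 with RK-701 and TSA, and 309.3 with UNC0638 and TSA, where the co-treatments with A366 and RK-701 stand in the reverse order of the *Zscan4* sum.

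*Zscan4-ps1*, *Zscan4-ps2* and *Zscan4-ps3* lie in or beside the cluster and carry pseudogene symbols, although the annotation of the count table lists them as protein coding. *Zscan4-ps3* had 44.18, 17.06, 57.01 and 36.45 TPM in IVF, 0.755 and 0.1472 in CC_cont, 5.002, 10.48 and 7.057 with RK-701, 0.5788 and 0 with A366, and 20.63 and 14.53 with UNC0638 and TSA. Of these 3 genes, 2 rose over the untreated control with RK-701, with either co-treatment of RK-701 or A366 and with either mRNA, and all 3 with UNC0638 and TSA, while none passed with TSA or A366 alone. Within 250 kb of the cluster lie 61 other annotated genes, these 3 included, of which 30 were tested. Over the untreated control, 7 of the 30 rose with UNC0638 and TSA (3.68% of all genes) and 5 with *Kdm3a* (2.38%). With *Kdm4d* (2.11%), RK-701 (1.73%) and A366 with TSA (3.06%), 4 each rose. With RK-701 and TSA 3 rose (3.68%), with A366 1 and with TSA 0, and none fell. Without the 3 pseudogene symbols, the counts out of 27 were 4, 3, 2, 2, 2, 1, 1 and 0 in the same order.

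Transposable element copies in the span from *Zscan4a* to *Zscan4f*, without flanks, were read from the authors' table of element counts. They gave 319.3 ± 3.94 CPM in IVF (SD, n = 4) over 574 copies, of which 430 had a read. Control SCNT had 82.1% of that level, CC_cont 48.5%, TSA 43.3%, A366 96.5% (libraries of 220.0 and 396.4 CPM), RK-701 85.5%, UNC0638 with TSA 98.1%, and *Kdm3a* 146%. For the 13 copies of MERVL-int and MT2_Mm, the endogenous retrovirus of the two-cell stage and its promoter, CC_cont had 25.69 and 24.59 CPM and A366 had 41.02 and 88.01. Both A366 libraries were above CC_cont over these copies, but the other untreated control, control SCNT, had 49.04 and 54.23 CPM, between the A366 libraries. The co-treatments with A366 (43.13 and 29.55 CPM) and RK-701 (36.62 and 28.68) were lower than UNC0638 with TSA (77.66 and 61.97), as for the genes. No test was made on these copies, whose reads may fall in exons of the genes.

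**Figure D5:**
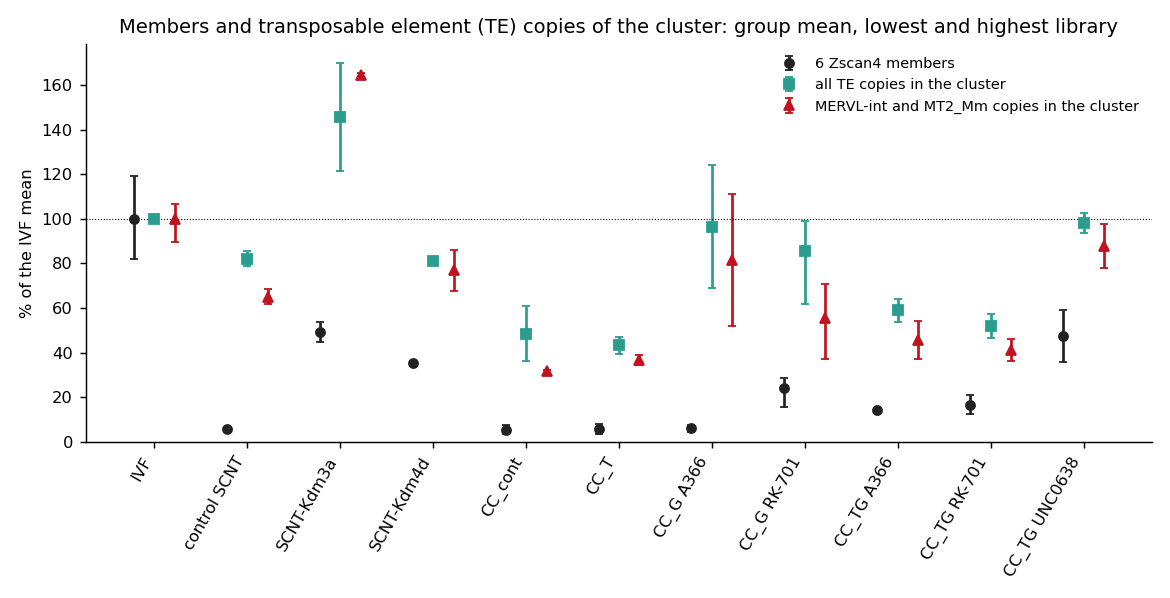
Level of the 6 *Zscan4* members (circles), of all transposable element copies in the span from *Zscan4a* to *Zscan4f* (squares) and of its 13 MERVL-int and MT2_Mm copies (triangles) in each group, as a percentage of the IVF mean (points, group means; whiskers, lowest and highest library). SCNT-*Kdm3a* reaches 146% of IVF over all copies. A366 alone reaches 96.5% of IVF over all copies beside 6.11% for the *Zscan4* genes, and untreated control SCNT 82.1% beside 5.49%.

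Genes that act on *Zscan4* or are switched on beside it were taken as 5 lists. Of the activators, 5 of 6 were tested (*Duxf3*, the *Dux* locus, was not, at a mean of 0.0671 TPM), and 2 rose with each mRNA, 1 with RK-701, 3 with RK-701 and TSA, 2 with A366 and TSA and 0 with UNC0638 and TSA, TSA or A366. Of all genes, 2.38% rose with *Kdm3a*, 2.11% with *Kdm4d*, 1.73% with RK-701, 3.68% with RK-701 and TSA and 3.06% with A366 and TSA. *Dppa2*, a chromatin factor that acts upstream of *Dux* and *Zscan4*, had 689.5 ± 235.6 TPM in CC_cont (SD, n = 2) and 651.7 ± 56.26 in IVF (n = 4). It rose by 1.38 ± 0.27 on the log2 scale with *Kdm3a* (adjusted p = 0.00221), 1.17 ± 0.26 with *Kdm4d* (adjusted p = 0.00995), 1.18 ± 0.26 with RK-701 and TSA (adjusted p = 0.00449) and 1.20 ± 0.26 with A366 and TSA (adjusted p = 0.00448). UNC0638 and TSA, with the highest *Zscan4* of the inhibitor groups, gave *Dppa2* 0.91 ± 0.26, under the fold threshold, and RK-701 alone 0.02 ± 0.24. Its partner *Dppa4* had 1.14 ± 0.23 with RK-701 and TSA (adjusted p = 0.00185) and 0.22 ± 0.21 with RK-701 alone (adjusted p = 0.609).

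Of 14 genes that hold the two-cell program down, none rose and 1 fell over the untreated control of its arm, in 1 of the 8 treatments. *Pias4*, a SUMO ligase, was lower with RK-701, with a log2 fold change of -1.81 ± 0.35 (adjusted p = 0.0029), from 19.6 ± 14.06 TPM in CC_cont (SD, n = 2) to 5.159 ± 0.3437 (n = 3). *Pias4* was also lower with RK-701 than with A366 (log2 difference -2.10 ± 0.35, adjusted p = 0.000178). Against IVF, 1 to 3 of the 14 were higher and none lower in each SCNT group, *Ehmt2*, which encodes G9a, being among the higher in all 10. The share of all genes higher than IVF is not given here, so these counts show nothing particular to the list. Over CC_cont, *Ehmt2* had -0.13 ± 0.22 with RK-701, and *Ehmt1*, its partner GLP, -0.71 ± 0.21, under the fold threshold. Of 9 partners and genes downstream of ZSCAN4, *Hdac1* rose with *Kdm4d* (1.11 ± 0.28, adjusted p = 0.0204) and with UNC0638 and TSA (1.13 ± 0.28, adjusted p = 0.0108), and *Dmc1*, a meiotic recombinase gene, fell by 1.29 on the log2 scale with A366 and TSA (adjusted p = 0.0207). Of all genes, 2.11% rose with *Kdm4d* and 3.68% with UNC0638 and TSA. The share of all genes that fell is not given, so the falls of *Pias4* and *Dmc1* show nothing particular to these lists.

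Of 25 other genes of the two-cell burst, 19 rose with UNC0638 and TSA over CC_cont, beside 4 with RK-701 and TSA, 2 with A366 and TSA, 2 with RK-701, 0 with TSA or A366, 8 with *Kdm3a* and 5 with *Kdm4d* over control SCNT. Of all genes, 3.68% rose with UNC0638 and TSA, 3.68% with RK-701 and TSA and 3.06% with A366 and TSA. With RK-701, *Kdm3a* and *Kdm4d* the shares were 1.73%, 2.38% and 2.11%. The median log2 fold change of the list was 1.76 with UNC0638 and TSA and 0.04 with RK-701 and TSA, beside -0.08 and -0.11 over all genes. *Zfp352*, a two-cell zinc finger gene, was the 1 that fell, by 1.04 on the log2 scale with *Kdm4d* (adjusted p = 0.0155). The share of all genes that fell with *Kdm4d* is not given. *Obox3* rose by 1.68 ± 0.26 with RK-701, 1.91 ± 0.28 with RK-701 and TSA, 1.95 ± 0.28 with A366 and TSA and 3.05 ± 0.29 with UNC0638 and TSA. *Obox6*, another of the homeobox family, rose by 1.50 ± 0.25 with RK-701 and TSA and by 1.50 ± 0.25 with UNC0638 and TSA, and had 0.44 ± 0.23 with RK-701. Against the RK-701 and A366 co-treatments, UNC0638 with TSA was higher for 12 and 15 of the 25 genes, beside 0.671% and 0.733% of all genes.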

How the data were processed

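RNA-seq libraries (polyA RNA, SMART-Seq HT) were trimmed with Trimmomatic 0.36 by the authors, aligned with STAR 2.7.5c to mm10 keeping unique alignments, and counted per gene with featureCounts 1.6.2 over exons without use of strand. The deposited values are raw counts, per gene and per transposable element copy. Here CPM and TPM were computed from them. Groups came from the sample titles. Genes off the sex chromosomes whose average count reached 1 (25794) were tested with edgeR 4.0.16 (quasi-likelihood, TMM, 1 term per group, all 25 libraries, R 4.3.3) and p-values adjusted by Benjamini-Hochberg over all genes of a comparison. A gene was called at an adjusted p below 0.05 and a fold above 2, interactions on the adjusted p alone. On data simulated for RK-701 with TSA against CC_cont, 60.5% of 200 changed genes among 25639 were recovered, with 3 false calls. The changed genes were drawn from the better counted ones and all changed by the same amount, above the fold threshold. Their spread was set by expression level alone, so the share does not carry over to scarce or unusually variable members or to smaller changes. DESeq2 1.42.0 and other settings were alternatives. All libraries of a group differed by more than counting noise (lowest mean chi-square per gene 7.34). Members and lists were chosen with earlier results of these data known; all members are named, and other genes by list, rank of correlation or call.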

Additional observations from a re-analysis of the deposited data

How the results depend on the processing

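Size factors by RLE and the inclusion of the sex chromosomes kept the number of members called within 1.5 times in all 33 comparisons, and no called value changed sign in 1130 alternative values. Without a filter on low counts the count was 5 for RK-701 against CC_cont, 2 for A366 added to TSA, 2 for the interaction of TSA and A366, and 2 for RK-701 with TSA against SCNT-*Kdm4d*. DESeq2 gave 1 for that interaction and 2 for RK-701 with TSA against SCNT-*Kdm4d*, and a filter of 10 reads in 2 libraries gave 1 for the latter. Both untreated controls as reference gave 5 for RK-701. With the compared libraries only, the count was 1 for A366 with TSA against CC_cont, 2 for A366 added to TSA and 1 for RK-701 with TSA against SCNT-*Kdm4d*. The cause of these moves was not tested.

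Replicate numbers did not pair the libraries: deviations of same-numbered libraries correlated over 0.1 in 4 of 111 pairs (-0.322 to 0.165, median -0.004, beside 0.003 for other pairs). With the replicate block the counts were 3 for RK-701 with TSA against IVF, 1 for UNC0638 against RK-701 with TSA and 2 for UNC0638 against A366 with TSA, and within 1.5 times of the main count in the other 30 comparisons.

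Leaving out 1 library at a time gave counts of 1 to 4 for RK-701, 1 to 3 for RK-701 with TSA, 1 to 2 for A366 with TSA and 3 to 5 for UNC0638 with TSA against CC_cont, and 3 to 4 for either mRNA against control SCNT. Against IVF they were 0 to 2 for SCNT-*Kdm3a*, 1 to 3 for SCNT-*Kdm4d*, 3 to 6 for RK-701 with TSA and 1 to 2 for UNC0638 with TSA. They were 0 to 1 for UNC0638 against RK-701 with TSA, 0 to 3 for UNC0638 against A366 with TSA, 2 to 4 for RK-701 against A366, 1 to 2 for TSA added to A366, 0 to 3 for RK-701, 1 to 2 for A366 and 2 to 6 for UNC0638 added to TSA, 0 to 2 for the interaction of TSA and A366, and 0 to 3 for RK-701 with TSA against SCNT-*Kdm3a*.

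The summed level of control SCNT was 5.05% of IVF over all chromosomes, 4.64% by CPM and 5.76% without *Zscan4a*. Without *Zscan4a*, SCNT-*Kdm3a* was at 55.9%, SCNT-*Kdm4d* at 37.0% and A366 with TSA at 12.4%, and SCNT-*Kdm4d* was at 39.0% by CPM. Leaving out 1 library gave 5.18% to 5.87% for control SCNT, 3.61% to 7.34% for CC_cont, 3.27% to 7.91% for CC_T, 4.55% to 7.66% for A366, 13.6% to 15.4% for A366 with TSA, 12.5% to 20.9% for RK-701 with TSA, 21.8% to 28.1% for RK-701, 33.2% to 37.6% for SCNT-*Kdm4d*, 35.6% to 59.2% for UNC0638 with TSA and 44.8% to 53.5% for SCNT-*Kdm3a*. *Zscan4b* and *Zscan4e* rest on a mean of 13.9 and 15.1 reads per library, which limits their calls.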

Other observations

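Of 12 other SCAN zinc finger genes outside the cluster, 3 rose with RK-701 and TSA, 3 with A366 and TSA, 3 with UNC0638 and TSA, 1 with *Kdm4d* and 0 with *Kdm3a*, TSA, RK-701 or A366 alone, by edgeR's quasi-likelihood test. Of all genes, 3.68% rose with RK-701 and TSA, 3.06% with A366 and TSA, 3.68% with UNC0638 and TSA and 2.11% with *Kdm4d*. *Zscan21* had 26.37 ± 4.826 TPM in CC_cont (SD, n = 2) and 45.4 ± 7.629 in IVF (n = 4). It rose by 1.24 ± 0.29 on the log2 scale with RK-701 and TSA (adjusted p = 0.00638), 1.31 ± 0.29 with A366 and TSA (adjusted p = 0.00457), 1.17 ± 0.29 with UNC0638 and TSA (adjusted p = 0.0101) and 1.54 ± 0.29 with *Kdm4d* (adjusted p = 0.00282). *Zscan5b*, at 308.2 ± 4.86 TPM in CC_cont, rose with UNC0638 and TSA by 1.31 ± 0.20 (adjusted p = 0.000109) to 562.7 ± 16.91 TPM. Between UNC0638 and RK-701 or A366, all with TSA, no gene of the list passed.

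*Gata2*, a transcription factor on the list of activators, was measured at 7.012 ± 1.896 TPM in IVF (n = 4), 0.04668 ± 0.06601 in CC_cont (n = 2), 1.341 ± 1.329 with RK-701 (n = 3), 1.852 ± 0.08822 with A366 (n = 2) and 0.3592 ± 0.3631 with UNC0638 and TSA (n = 2). No fold of *Gata2* over CC_cont is given, as its level there was near 0. Over CC_cont it rose with RK-701 (adjusted p = 0.0165) and with either RK-701 or A366 and TSA (adjusted p = 0.0263 and 0.0387). With UNC0638 and TSA, where all 6 *Zscan4* members passed, it did not pass (adjusted p = 0.148). It did not pass between RK-701 and A366 (-0.48 ± 0.73, adjusted p = 0.738) or between UNC0638 and RK-701 with TSA (-1.09 ± 0.88, adjusted p = 0.678). Its interaction of TSA and A366 was negative (adjusted p = 0.0351), all by edgeR's quasi-likelihood test and at a CC_cont level near 0.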
